A study of Homo sapiens with 8 samples.

Results

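The genes described here are the core of the human microRNA pathway, the paralogues LIN28A and LIN28B and the nuclease DIS3L2. The 10 genes are DROSHA, DGCR8, XPO5, DICER1, TARBP2, AGO1, AGO2, LIN28A, LIN28B and DIS3L2. They were found by matching the RefSeq accessions of the deposited tables to these symbols, AGO1 and AGO2 being also known as EIF2C1 and EIF2C2. All 10 were found, through 23 of the 49235 transcripts, and all 10 are among the 13116 genes that averaged at least 1 FPKM. Total RNA came from the human embryonic stem cell line H1, whose cells carried a hairpin RNA inducible by doxycycline. The hairpin was directed against EXOSC3, a core subunit of the RNA exosome (shEXOSC3), or was non-silencing (shNS). The groups were shEXOSC3 with doxycycline, shEXOSC3 without, shNS with doxycycline and shNS without, each after 7 and after 5 days, which gave 8 groups of 1 library. All cells were grown without feeders, on Matrigel, at reduced oxygen and under puromycin, the controls included. The labels do not say whether a line was a clone. No group had a replicate, so a difference between 2 libraries has no replicate check.

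MicroRNAs are cut from long primary transcripts. In the nucleus the Microprocessor, made of the RNase III enzyme DROSHA and its RNA-binding partner DGCR8, releases a hairpin, which XPO5 carries to the cytoplasm. There DICER1, with the double-stranded RNA-binding protein TARBP2, trims the hairpin to a short duplex, and an Argonaute such as AGO1 or AGO2 keeps a strand as the guide that finds target mRNAs. LIN28A and LIN28B, abundant in embryonic stem cells, bind precursors of the let-7 family and block their maturation. Terminal uridylyltransferases then add a U tail, and DIS3L2, a relative of the exosome nucleases DIS3 and DIS3L that works apart from the exosome, degrades the tailed precursors.

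The sequence on which LIN28 acts is shown here because it links the LIN28 genes to DIS3L2. All sequences are those of RefSeq on GRCh38.p14, written 5′ to 3′ in RNA letters. The 9 mature let-7 sequences from the 5′ arm, miR-98 included, share 1 seed (bases 2 to 8, in capitals), as these 3 show.
let-7a-5p (chr9:94175962-94175983, plus strand): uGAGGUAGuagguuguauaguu
let-7i-5p (chr12:62603691-62603712, plus strand): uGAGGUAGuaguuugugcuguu
miR-98-5p (chrX:53556299-53556320, minus strand): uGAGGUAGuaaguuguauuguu

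The motif GGAG, to which the zinc knuckles of LIN28 bind, was searched for on the RNA strand between the arms of each hairpin. Where both arms were not listed, the search ran from the 5′ arm to the end of the hairpin. It was found in 9 of the 12 let-7 hairpins and not in the other 3, let-7a-3, let-7b and miR-98. Of 739 human hairpins with both arms listed, 60 (8.12%) held it between the arms. Of the hairpins below, the first 3 hold the motif, in capitals, and the last does not.
let-7a-1 (chr9:94175957-94176036, plus strand): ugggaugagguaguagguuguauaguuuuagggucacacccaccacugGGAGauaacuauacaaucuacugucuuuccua
let-7f-1 (chr9:94176347-94176433, plus strand): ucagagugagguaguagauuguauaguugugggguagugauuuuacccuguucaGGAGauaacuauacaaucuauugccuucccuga
let-7i (chr12:62603686-62603769, plus strand): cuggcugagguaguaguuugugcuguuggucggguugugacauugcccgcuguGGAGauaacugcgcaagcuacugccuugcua
let-7b (chr22:46113686-46113768, plus strand): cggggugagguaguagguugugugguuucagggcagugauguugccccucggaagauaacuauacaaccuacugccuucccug

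Values are FPKM, the fragments of a transcript scaled to its length and to the mapped fragments of the library, summed over the RefSeq transcripts of a gene. FPKM summed to between 675742 and 785419 per library, and read counts were not given in the sources used here. The steps between low values gave the relative depth of each pair. Doxycycline over untreated, it was 0.922 on day 7 and 1.01 on day 5 for shEXOSC3, and 1.33 on day 7 and 1.59 on day 5 for shNS. Libraries of day 5 were more concentrated, with 3 transcripts holding 23.8% to 27.6% of FPKM, than those of day 7, with 6.21% to 7.16%. EXOSC3 stood at 12.3 FPKM with doxycycline, against 25.2 FPKM without, in shEXOSC3 on day 7, and at 11.3 against 25.2 FPKM on day 5. In shNS it stood at 27.4 against 30.3 FPKM on day 7 and at 27.8 against 27.3 FPKM on day 5. The knockdown thus left 48.9% and 45.0% of the untreated EXOSC3 RNA on days 7 and 5. The markers of pluripotent stem cells were present. POU5F1 lay between 139 and 171 FPKM and SOX2 between 172 and 262 FPKM. Of 9 markers of mesendoderm and endoderm, 0 averaged 1 FPKM, and their sum lay between 1.12 and 1.89 FPKM. Of 8 neuroectoderm markers 1 averaged at least 1 FPKM, NES at 64.7 to 105 FPKM. Of 6 mesoderm markers 2 did, KDR at 27.2 to 66.4 FPKM and PDGFRA at 1.05 to 3.27 FPKM. Of 7 trophectoderm and amnion markers 1 did, KRT7 at 7.70 to 9.26 FPKM. Of 7 fibroblast markers 4 averaged 1 FPKM, THY1 the highest at 74.1 to 197 FPKM. LUM and DCN were listed at 0 in all libraries and COL3A1 reached at most 0.0543 FPKM. Of the fibroblast markers, COL1A1 alone passed 2-fold by the adjusted log2 difference defined below, at 1.25 on day 5. On day 5 it had 9.11 against 4.52 FPKM in shEXOSC3 with and without doxycycline, and 3.87 against 5.34 FPKM in shNS. On day 7 its adjusted log2 difference was -0.07. COL1A2 had 0.70 on day 5 and 0.11 on day 7. The sum of the fibroblast markers was mostly THY1 in every library, so it says little of the others. It was 225 against 208 FPKM on day 7 and 134 against 98.2 FPKM on day 5 in shEXOSC3 with and without doxycycline. In shNS it was 168 against 182 FPKM and 105 against 97.0 FPKM. The part of these markers in the values below was not tested. In such bulk RNA, fewer cells of a type and less RNA per cell cannot be told apart.

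LIN28A was by far the most abundant of the 10 genes in every library. It had 524, 633, 587 and 590 FPKM on day 7, in shEXOSC3 with and without doxycycline and in shNS with and without, and 449, 459, 436 and 503 FPKM on day 5 in the same order. These levels placed it between rank 143 and rank 202 of the 13116 genes. LIN28B followed, between rank 828 and rank 1306. FPKM is per length, so genes can be compared within a library: LIN28B made up 15.4% to 16.5% of all LIN28 FPKM on day 7 and 12.6% to 15.3% on day 5. On day 7 the order by median was then AGO2 (34.2 FPKM), XPO5 (32.9), DICER1 (29.2), DROSHA (27.3), AGO1 (19.1), TARBP2 (15.2), DGCR8 (14.0) and DIS3L2 (10.2). Neighbours in this order from AGO2 to DROSHA overlapped over the 4 libraries of the day, as did TARBP2 with DGCR8 and DGCR8 with DIS3L2. On day 5 the order below LIN28B was TARBP2 (51.7 FPKM), XPO5 (34.3), DICER1 (24.9), AGO2 (17.3), AGO1 (10.96), DGCR8 (10.7), DROSHA (10.3) and DIS3L2 (6.99). There AGO1 overlapped with DGCR8, and DGCR8 with DROSHA, and the other neighbours stood apart.

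**Figure D1:**
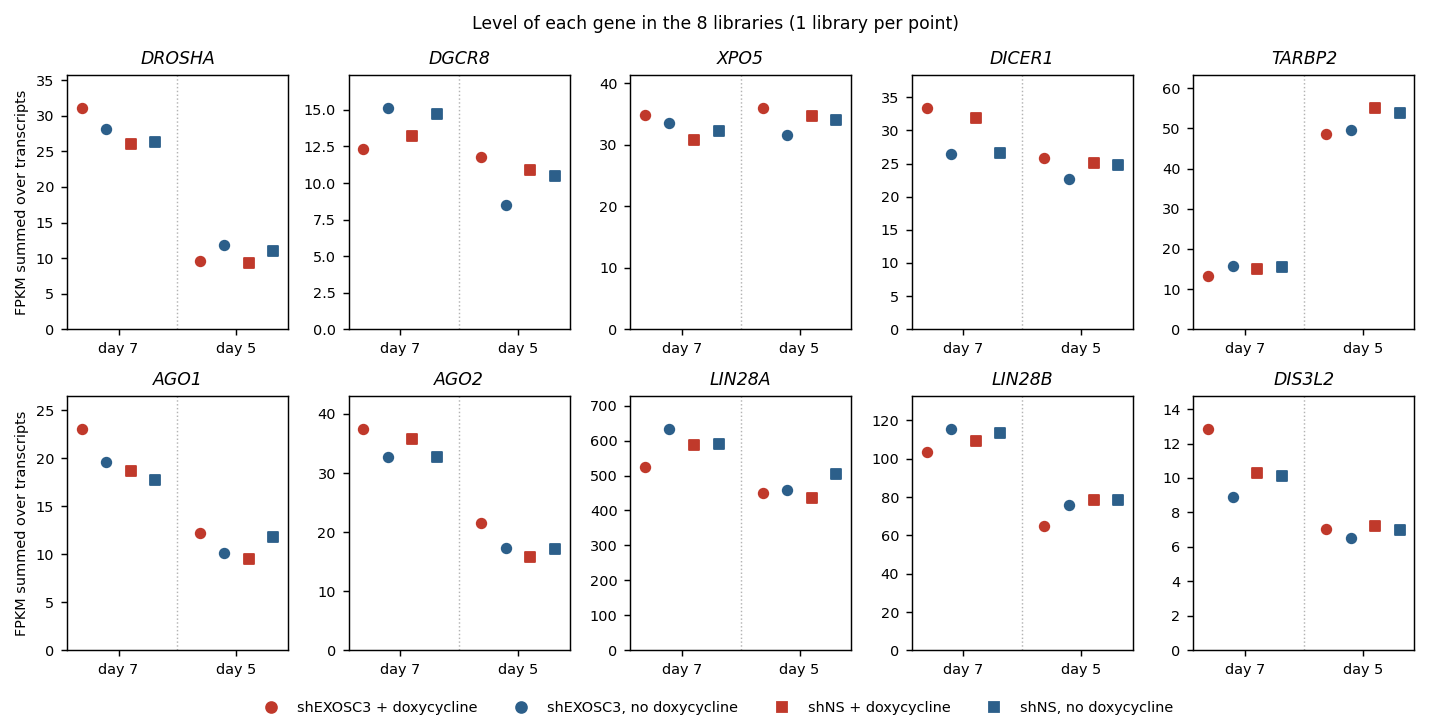
Level of each of the 10 genes in FPKM summed over transcripts (vertical axis, from 0) in the 8 libraries, day 7 at the left and day 5 at the right of each panel. Circles are shEXOSC3 and squares shNS, red with doxycycline and blue without. Within a day, the red and blue points of a line lie less than 2-fold apart. The widest such pairs are both of shEXOSC3, DIS3L2 on day 7 (12.8 against 8.91 FPKM) and DGCR8 on day 5 (11.8 against 8.49 FPKM). DROSHA and TARBP2 differ most between the days.

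The first comparison asked whether EXOSC3 knockdown altered the RNA of these genes. Doxycycline was set over no doxycycline within each table, as log2((FPKM + 1)/(FPKM + 1)), called the log2 ratio here. Subtracting the shNS ratio of a day from the shEXOSC3 ratio gave the adjusted log2 difference. No member reached a 2-fold difference: 0 of 10 passed in any table or by the adjusted difference on either day. EXOSC3 itself passed on day 5, with a log2 ratio of -1.09 in shEXOSC3 and an adjusted difference of -1.11, but not on day 7, at -0.97 and -0.84. Among all 13116 genes, 2.92% passed 2-fold in shEXOSC3 and 2.05% in shNS on day 7, and 2.05% and 1.32% on day 5. By the adjusted difference 3.96% passed on day 7 and 2.43% on day 5. At those shares, a count of 0 among 10 genes is near the background. The adjusted differences of the members ran from -0.26 to 0.46 on day 7 and from -0.23 to 0.53 on day 5, with medians of 0.07 and 0.16. The medians of all genes were -0.01 and -0.00076.

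Of the Microprocessor, DROSHA had 31.1 FPKM with doxycycline, against 28.2 FPKM without, in shEXOSC3 on day 7, and 9.65 against 11.8 FPKM on day 5. In shNS it had 26.1 against 26.4 FPKM on day 7 and 9.34 against 11.001 FPKM on day 5. Its adjusted log2 differences were 0.16 on day 7 and -0.05 on day 5, on opposite sides of 0. DGCR8, the partner of DROSHA, had 12.3 against 15.1 FPKM on day 7 and 11.8 against 8.49 FPKM on day 5 in shEXOSC3. The shNS line had 13.2 against 14.7 FPKM on day 7 and 10.9 against 10.5 FPKM on day 5. Its adjusted differences of -0.13 and 0.38 also changed sides, and the untreated shEXOSC3 library of day 5 was the lowest of all 8. The tables bundle DGCR8 (hg19, chromosome 22, 20067755 to 20114880) in 1 locus with TRMT2A, RANBP1 and 3 microRNA entries. No source used here states whether counting took account of strand.

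XPO5, the export receptor, was the steadiest of the 10 genes. It had 34.8 against 33.6 FPKM on day 7 and 36.0 against 31.6 FPKM on day 5 in shEXOSC3 with and without doxycycline. In shNS XPO5 had 30.8 against 32.3 FPKM and 34.7 against 33.9 FPKM. Its coefficient of variation over the 8 libraries was 5.32%, where the others ran from 13.5% for DICER1 to 59.6% for TARBP2. The adjusted differences were 0.12 and 0.15 on days 7 and 5.

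DICER1, which makes the mature duplex, stood higher with doxycycline in all 4 tables. In shEXOSC3 it had 33.4 against 26.4 FPKM on day 7 and 25.8 against 22.7 FPKM on day 5. The shNS values were 31.8 against 26.5 FPKM and 25.1 against 24.8 FPKM. The shNS log2 ratios were 0.25 on day 7 and 0.02 on day 5, against which the shEXOSC3 ratios of 0.33 and 0.17 gave adjusted differences of 0.08 and 0.16. Of all genes, 12.8% stood above 0 in all 4 tables, DICER1 and DIS3L2 among them. The DICER1 locus also holds the antisense gene DICER1-AS1, which cannot be separated from it without a stated strand. TARBP2, its partner, had 13.2 against 15.8 FPKM on day 7 and 48.5 against 49.6 FPKM on day 5 in shEXOSC3. In shNS TARBP2 had 14.99 against 15.5 FPKM and 55.1 against 53.7 FPKM. The adjusted differences were -0.21 and -0.07.

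AGO1 and AGO2, Argonautes that hold the guide strand, lay above 0 by the adjusted difference on both days, as did 26.0% of all genes. The paralogue AGO3 had -0.59 on day 7 and -0.10 on day 5, and AGO4 had -0.05 and 0.01. AGO1 had 23.1 against 19.6 FPKM on day 7 and 12.2 against 10.2 FPKM on day 5 in shEXOSC3 with and without doxycycline. In shNS AGO1 had 18.6 against 17.7 FPKM and 9.46 against 11.8 FPKM. Its adjusted differences were 0.16 and 0.53. The day 5 value, the highest of the members that day, was made of a log2 ratio of 0.24 in shEXOSC3 and of -0.29 in shNS. AGO2, the Argonaute that can itself cut a target, had 37.5 against 32.7 FPKM and 21.6 against 17.4 FPKM in shEXOSC3. The shNS values were 35.7 against 32.8 FPKM and 15.7 against 17.1 FPKM. The adjusted differences of AGO2 were 0.07 and 0.41.

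LIN28A was lower with doxycycline in all 4 tables, as were 12.4% of all genes. Its log2 ratios were -0.27 on day 7 and -0.03 on day 5 in shEXOSC3, against -0.01 and -0.21 for shNS. Its adjusted differences were therefore -0.26 and 0.18, on opposite sides of 0. Beside it, the summed level of the pluripotency markers (9 of 10 measured) was also lower with doxycycline in each table. That sum was 2170 against 2752 FPKM and 1571 against 2035 FPKM in shEXOSC3, and 2290 against 2728 FPKM and 1694 against 1908 FPKM in shNS. Single markers did not all follow the sum. POU5F1, SOX2, DPPA4, DNMT3B and L1TD1 were lower in each table, while NANOG, ZFP42, SALL4 and PODXL were not. PODXL had 134 against 104 FPKM in shEXOSC3 on day 5. The part of these markers in the LIN28A values was not tested. LIN28B had 104 against 116 FPKM on day 7 and 64.9 against 75.8 FPKM on day 5 in shEXOSC3. The shNS libraries had 109 against 114 FPKM and 78.7 against 78.3 FPKM. Its adjusted differences were -0.10 and -0.23.

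DIS3L2, the nuclease of U-tailed precursors, had 12.8 against 8.91 FPKM in shEXOSC3 with and without doxycycline on day 7, and its adjusted difference of 0.46 was the highest of the 10 genes that day. On day 5 it had 7.02 against 6.54 FPKM, an adjusted difference of 0.04. In shNS it had 10.3 against 10.1 FPKM and 7.22 against 6.96 FPKM. On day 7 the doxycycline library of shEXOSC3 was the highest of the 4 and its untreated partner the lowest. Across tables, shEXOSC3 over shNS was 0.30 on the log2 scale with doxycycline and -0.17 without.

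**Figure D2:**
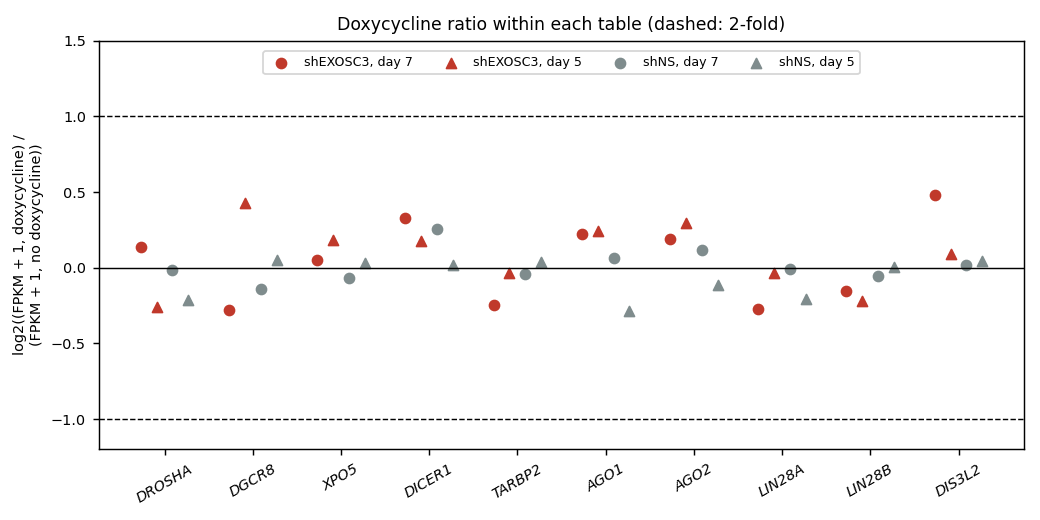
Log2 ratio of doxycycline over no doxycycline (vertical axis, FPKM + 1 on a log2 scale) for each gene in the 4 tables. Red points are shEXOSC3 and grey points shNS, circles day 7 and triangles day 5. All 40 points lie between the dashed lines that mark 2-fold, and the highest is DIS3L2 in shEXOSC3 on day 7 at 0.48.

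By the adjusted difference, 5 members (XPO5, DICER1, AGO1, AGO2 and DIS3L2) lay above 0 on both days, against 26.0% of all genes. TARBP2 and LIN28B lay below 0 on both days, against 28.9% of all genes, and DROSHA, DGCR8 and LIN28A changed sides. The ratios of the lines were compared by limma, with the days as observations of a line, so the test sets a difference against the spread between days. Days are time points and not replicates. limma called 0 of the 10 members over all genes, at adjusted p values between 0.747 and 0.954. At an unadjusted p under 0.05 there were 0 members, against 769 of the 13116 genes (5.86%), and 0 genes were called in all. The largest estimate was that of AGO1, 0.34 (SE 0.16, 95% interval -0.07 to 0.76). DIS3L2 had 0.25 (SE 0.17, -0.20 to 0.70) and AGO2 0.24 (SE 0.13, -0.12 to 0.60). LIN28A had -0.04 (SE 0.17, -0.49 to 0.40) and LIN28B -0.17 (SE 0.11, -0.47 to 0.14). The widest interval was that of DGCR8, from -0.59 to 0.83. With all 4 tables and summed transcripts, the 10 intervals stayed within 2-fold. With 1 table left out, those of DROSHA, DGCR8, AGO1 and DIS3L2 passed 2-fold in at least 1 such fit. The DIS3L2 estimate itself was 0.06 without shEXOSC3 day 7 and 0.45 without shEXOSC3 day 5. That of AGO1 was 0.52 without shNS day 7 and 0.17 without shNS day 5. EXOSC3 had -0.98 (SE 0.12, -1.30 to -0.65) and an adjusted p of 0.747. In the authors' deposited tables, which compare 1 library with 1 library, 0 member transcripts were marked significant, as was the case for all transcripts. The smallest member q in the authors' deposited table was 0.417, for AGO2 transcript NM_012154 in shNS on day 7.

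Within each gene, the tables divide reads among RefSeq transcripts. In DICER1 and AGO2 on day 7, and in TARBP2 on day 5, these shares moved by more than the sums did. Of the 10 genes, 4 had 1 transcript (XPO5, AGO1, LIN28A and LIN28B) and 6 had several. DICER1 transcript NM_030621 took 51.5% of the DICER1 FPKM with doxycycline, against 18.2% without, in shEXOSC3 on day 7. It stood at 17.2 against 4.80 FPKM, and its p in the authors' deposited table was 0.00635, with q of 0.715. NM_001291628 was at 0.00271 against 5.10 FPKM in the same libraries, and the summed DICER1 level differed by 1.26-fold. NM_030621 and NM_001291628 have the same length in the reference annotation, 10331 bases in 29 exons, and NM_177438 has 10277 bases. How well reads separate these transcripts was not tested, so their shares are estimates. In shNS on day 7 the share of NM_030621 was 54.1% against 54.7%. A share moved by at least 20 points with doxycycline in 28.3% of the 5949 genes with several transcripts in shEXOSC3 on day 7 and in 29.4% in shNS, so such a shift is common. On day 5 those shares were 22.8% and 14.5%. TARBP2 transcript NM_004178 took 90.3% against 62.9% in shEXOSC3 on day 5, and 82.6% against 78.7% in shNS. The summed TARBP2 level in shEXOSC3 was 48.5 against 49.6 FPKM that day. AGO2 transcript NM_001164623 took 27.3% against 0.116% in shEXOSC3 on day 7, and 0.0108% against 40.7% in shNS, opposite directions in the 2 lines. On day 5 it took at most 0.00145% in any library. NM_012154, the other AGO2 transcript, had 27.2 against 32.7 FPKM in shEXOSC3 and 35.7 against 19.4 FPKM in shNS on day 7, while the AGO2 sum differed by 1.14-fold and 1.09-fold. The AGO2 totals in FPKM were thus close while the split between transcripts moved. NM_001164623 has 3141 bases and NM_012154 has 14581 bases. FPKM is scaled to length, so close totals need not mean close numbers of fragments.

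**Figure D3:**
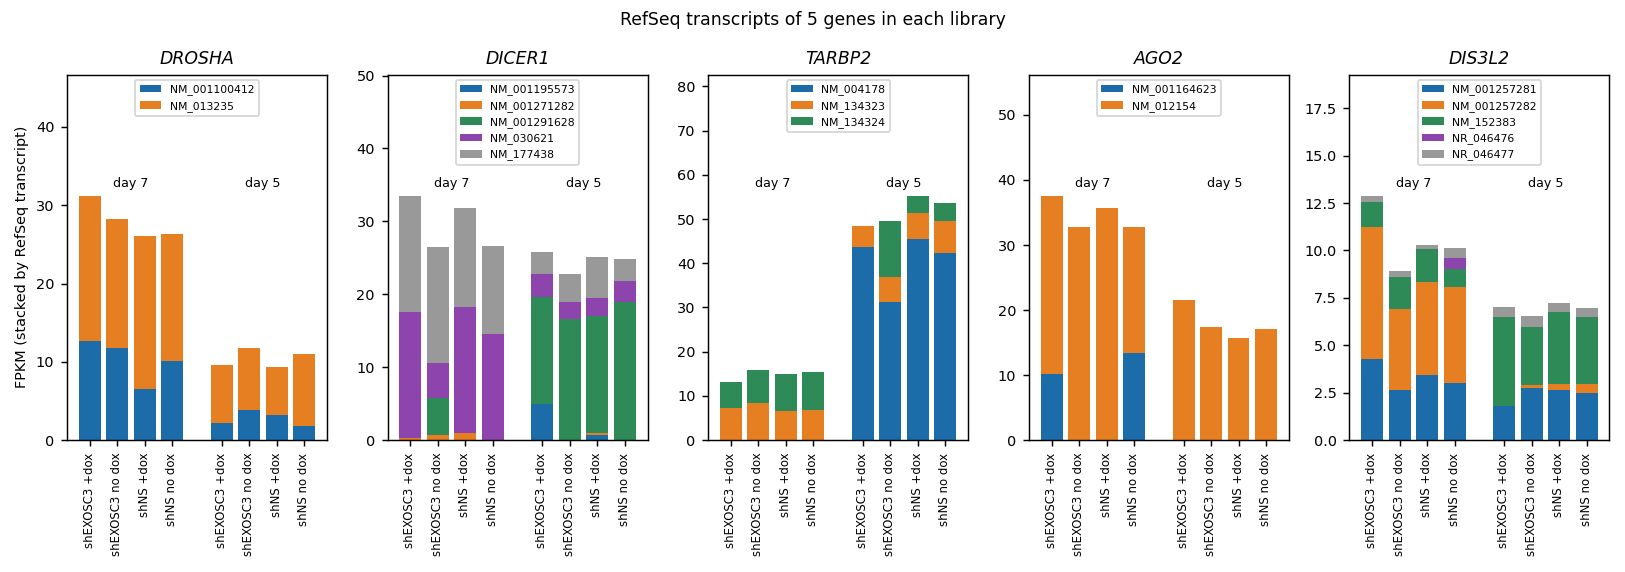
FPKM of each RefSeq transcript (stacked colours, vertical axis from 0) of DROSHA, DICER1, TARBP2, AGO2 and DIS3L2 in the 8 libraries, day 7 at the left and day 5 at the right. On day 5 TARBP2 consists mainly of NM_004178, at 31.2 to 45.5 FPKM, which is at most 0.101 FPKM on day 7. DICER1 and DIS3L2 differ between the days in which transcript is largest.

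Day 7 was then set against day 5 in the 4 matched pairs of libraries (same line, same treatment). The tables of the days were made separately and their libraries differed in composition, so these levels are given with no test. Day 7 and day 5 levels did not overlap for 9 of the 10 genes, XPO5 being the exception. That was true of 64.3% of all genes. DROSHA was the member at least 2-fold higher on day 7 in all 4 pairs, at 26.1 to 31.1 FPKM against 9.34 to 11.8 FPKM on day 5. Its log2 differences were 1.19 to 1.59, and 4.36% of all genes were 2-fold higher in all pairs. TARBP2 was the member at least 2-fold lower in all 4 pairs, at 13.2 to 15.8 FPKM on day 7 against 48.5 to 55.1 FPKM on day 5. Its log2 differences were -1.81 to -1.59, and 8.73% of all genes were 2-fold lower in all pairs.

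Of the other members, AGO2 had 32.7 to 37.5 FPKM on day 7 against 15.7 to 21.6 FPKM on day 5, and AGO1 17.7 to 23.1 against 9.46 to 12.2 FPKM. LIN28B had 104 to 116 FPKM against 64.9 to 78.7 FPKM, and LIN28A 524 to 633 against 436 to 503 FPKM. In all, 8 members were higher on day 7 in all 4 pairs, against 33.6% of all genes, and 1 was lower, against 44.2%. The medians of the members were 0.44 to 0.53 in the 4 pairs, where those of all genes were -0.09 to -0.07. Ratios within a library do not depend on the scale of a table. DROSHA relative to DGCR8 was 1.79 to 2.53 on day 7 and 0.819 to 1.39 on day 5, with no overlap. LIN28A relative to LIN28B was 5.06 to 5.48 on day 7 and 5.53 to 6.91 on day 5, also with no overlap. The levels of 64.3% of single genes did not overlap either, and no such share was computed for ratios. AGO1 relative to AGO2 was 0.522 to 0.615 on day 7 and 0.566 to 0.686 on day 5, which overlapped.

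The lower TARBP2 level of day 7 lay mainly in 1 transcript, NM_004178. Its values were 0.000487, 0.000807, 0.101 and 0 FPKM on day 7, in shEXOSC3 with and without doxycycline and in shNS with and without. Those of day 5 were 43.8, 31.2, 45.5 and 42.3 FPKM in the same order. Of the others, NM_134323 had 6.41 to 8.42 FPKM on day 7 and 4.73 to 7.40 FPKM on day 5, and NM_134324 had 5.95 to 8.65 FPKM and 0.000868 to 12.8 FPKM. TARBP2 and DICER1 were the 2 members in which a transcript share differed by at least 50 points between the days in all 4 pairs, as it did in 5.04% of genes with several transcripts. For DICER1 that was NM_001291628, with at most 19.3% on day 7 and 57.05% to 76.6% on day 5, while the summed DICER1 level differed by log2 values of 0.10 to 0.36. As said above, NM_030621 has the same length and exon count as NM_001291628, and how well reads separate them was not tested. In DIS3L2, NM_001257282 took 47.6% to 54.0% on day 7 and at most 6.99% on day 5.

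**Figure D4:**
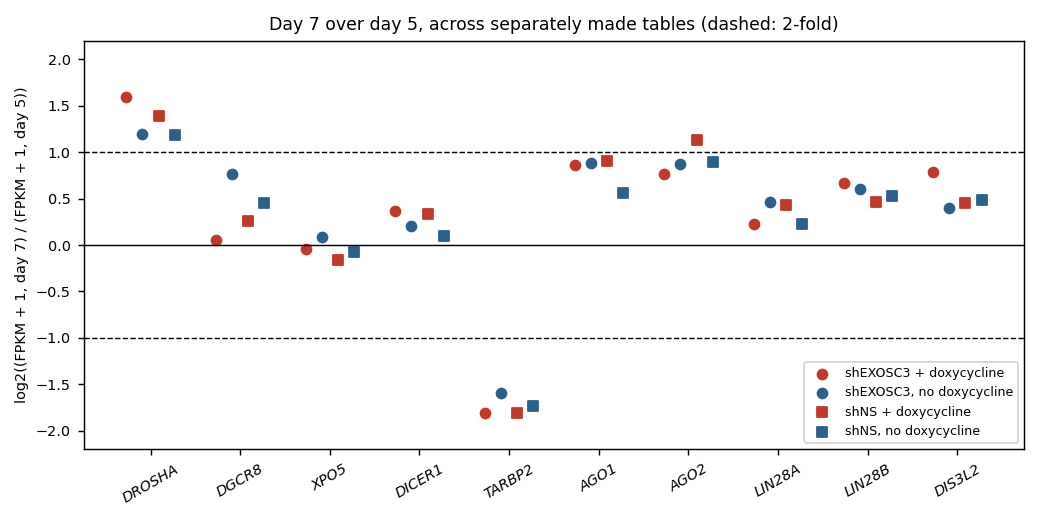
Log2 ratio of day 7 over day 5 (vertical axis, FPKM + 1) for each gene in the 4 matched pairs of libraries, across separately made tables. Circles are shEXOSC3 and squares shNS, red with doxycycline and blue without. DROSHA lies above the upper 2-fold line and TARBP2 below the lower one in all pairs, while DGCR8 spreads from 0.06 to 0.77.

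The rest of the pathway was described by lists of known factors, none of whose measured mRNAs reached a 2-fold adjusted difference on either day, where 3.96% of all genes did on day 7 and 2.43% on day 5. The counts of list genes on 1 side of 0 on both days stand beside 26.0% above and 28.9% below among all genes. Of 11 Microprocessor cofactors, 2 lay above 0 and 2 below 0 on both days. They were SRRT, which links nuclear cap binding to primary microRNAs, at 0.05 on day 7 and 0.25 on day 5, the helicase DDX17 at 0.14 and 0.00068, the splicing factor SRSF3 at -0.32 and -0.17 and the cap-binding protein NCBP1 at -0.07 and -0.21. Of 9 measured genes for Dicer cofactors, export and loading, 1 lay above and 7 below 0 on both days (all genes 26.0% and 28.9%), with medians of -0.08 and -0.09. The RNA editing enzyme ADAR had 0.21 and 0.25, the chaperone HSPA8 -0.06 and -0.58 and the export receptor XPO1 -0.34 and -0.07. Of 14 measured Argonaute and silencing genes, 4 lay above and 4 below 0 on both days. AGO3, given above, and the RNA-binding protein FXR1, at -0.28 and -0.17, had the lowest means of those 4 below 0, against 0.22 and 0.21 for the AGO-binding protein TNRC6C and 0.19 and 0.27 for EIF4ENIF1. HSP90AB1 and CNOT1 were left out because a transcript of each had a failed or too deep estimate.

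Of 13 genes for tailing and decay, 0 were above 0 and 7 were below 0 on both days (all genes 26.0% and 28.9%). The uridylyltransferases that tail precursor let-7 had -0.08 on day 7 and 0.38 on day 5 for TUT4, and -0.20 and -0.01 for TUT7. The exosome nuclease DIS3L, a relative of DIS3L2, had -0.19 and -0.32, and its paralogue DIS3 -0.09 and -0.37. The nuclear exonuclease XRN2 had -0.29 and -0.23. Over these lists the medians ran from -0.14 to -0.08 on day 7 and from -0.09 to 0.12 on day 5. Of 21 measured let-7 target mRNAs, 6 were above and 6 were below 0 on both days, which is near the shares of all genes (26.0% and 28.9%), with medians of -0.06 and 0.09. The cell cycle phosphatase CDC25A had -0.28 and -0.27 and the cyclin CCND1 -0.50 and -0.03, against 0.12 and 0.25 for the zinc finger gene PLAGL2 and 0.27 and 0.05 for ARID3B. MYCN had -0.24 and -0.28, and HMGA2, the classical let-7 target, -0.30 and -0.22. HMGA2 was not lower with doxycycline in shEXOSC3, at log2 ratios of 0.10 and 0.04, against 0.40 and 0.26 in shNS.

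**Figure D5:**
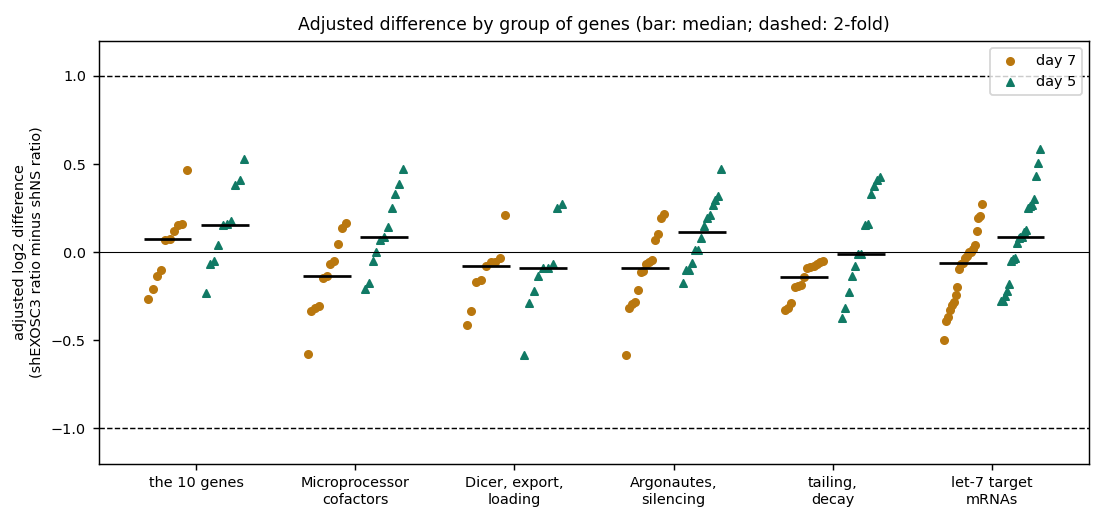
Adjusted log2 difference (shEXOSC3 ratio minus shNS ratio, vertical axis) of single genes in the 10-gene set and 5 lists of the pathway, circles for day 7 and triangles for day 5. Black bars are medians. All points lie between the dashed 2-fold lines, and the medians lie between -0.14 and 0.16.

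The let-7 hairpins shown above were measured as short RefSeq entries, and most were listed at 0. Of 12 hairpin entries, 6 were listed at 0 in all 8 libraries. On day 7, 3 and 4 entries were above 0 in shEXOSC3 with and without doxycycline, and 4 and 2 in shNS. On day 5 these counts were 1, 0, 1 and 1. The let-7f-1 entry MIRLET7F1 (hg19, chromosome 9, 96938629 to 96938715) was listed at 304 against 204 FPKM in shEXOSC3 on day 7 and at 162 against 72.1 FPKM in shNS. On day 5 it was listed at 0 in 3 libraries and at 14.2 FPKM in shNS with doxycycline. MIRLET7I was listed at 186 against 85.6 FPKM in shEXOSC3 on day 7, at 0 against 40.4 FPKM in shNS on day 7 and, on day 5, at 25.3 FPKM in untreated shNS and at 0 elsewhere. MIR98, without the GGAG motif, was listed at 19.7 against 9.08 FPKM in shEXOSC3 and at 9.64 against 0 FPKM in shNS on day 7. In entries this short few fragments make a large FPKM, and whether fragments came from the primary transcript or the hairpin cannot be told apart. MIRLET7BHG and MIR99AHG, host genes of let-7, averaged 0.0162 and 0.0553 FPKM.

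Genes whose levels over the 8 libraries were most like those of 3 members were found by Pearson correlation of log2(FPKM + 1) among 6603 other genes averaging at least 10 FPKM. For LIN28A they were DYNC1LI2 (r = 0.991) and ZNF585A (r = 0.987), and for LIN28B RPL17 (r = 0.996) and PGM3 (r = 0.995). For DICER1 they were PBX3 (r = 0.971) and RNF169 (r = 0.966). The 8 points share 4 tables and 2 days, and these values are descriptions with no test. RPL17 had 178 to 214 FPKM on day 7 and 89.0 to 118 FPKM on day 5.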

How the data were processed

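Each of the 4 deposited tables pairs a doxycycline library with its untreated control, for 1 line and 1 day; groups come from the sample titles. Per the labels' protocols, RNA was cleared of ribosomal RNA and sequenced from ScriptSeq v2 libraries. CASAVA 1.8, TopHat and Cufflinks were used with hg19 (GRCh37), per the submitters' processing notes; no source used here gives their other versions, the annotation release or the use of strand. The deposited tables hold FPKM per RefSeq transcript, laid out as by Cuffdiff, per the file headers, with the authors' p-value and q-value for 1 library against 1 library. The tables were made separately, so ratios were formed within a table.

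Accessions were named through RefSeq (GRCh38.p14, names only); 48147 of 49235 had 1 symbol. FPKM were summed per gene. Genes with any of the 164 transcripts of failed or too deep estimate, and genes averaging below 1 FPKM, were left out. A pseudocount of 1 FPKM was used, which understates differences of low genes. Having no replicates, a gene passed by size alone, at 2-fold. The 4 ratios were tested with limma 3.58.1 in R 4.3.3 (trend, 2 residual degrees of freedom, Benjamini-Hochberg at 0.05), after a check on simulated data. That check required only that mean estimates lay near the simulated sizes. It set no bound on the share of changed genes called, so it gives no assurance that a 2-fold difference would be called. Read depth is unknown beyond the ratios given.

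By rule, the named genes were the 10 members and EXOSC3. The rule also covered the 18 member transcripts averaging at least 1 FPKM, but only some of these are named in the text. In each list it covered up to 2 genes at each end among those on 1 side of 0 on both days. For LIN28A, LIN28B and DICER1 it covered the 2 most correlated genes. TUT4, TUT7, DIS3, AGO4, MYCN, HMGA2, the markers and the hairpin entries outside that rule were chosen after their values were seen, as were the comparison of days and that of transcript shares. The members and lists were chosen with earlier results of these data known. Alternatives were other pseudocounts, no filter, the most abundant transcript, median centring, comparison across tables and other limma settings.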

Additional observations from a re-analysis of the deposited data

How the results depend on the processing

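With the transcript of highest mean FPKM in place of the sum, 1 member passed 2-fold by the adjusted difference on day 7, AGO2 at -1.10, where the sum gave 0 members. The sign differed from the sum for 3 members on day 7 and 4 on day 5. DICER1 then had -0.16 on day 7 and -0.94 on day 5, AGO2 -1.10 and 0.41, and DIS3L2 0.41 and -0.47. Of the members above 0 on both days by the sum, XPO5 and AGO1 alone stayed so. With doxycycline libraries compared across tables the sign differed for 0 members on day 7 and 2 on day 5. With a pseudocount of 0.1 or 5 FPKM, no filter, all transcripts kept or centred ratios, 0 members changed sign and 0 passed. EXOSC3 was -0.84 on day 7, short of 2-fold, but passed it at -1.37 with the transcript of highest mean and at -1.09 across tables. Its day 5 value of -1.11 fell short, at -0.91, with a pseudocount of 5 FPKM. limma called 0 members in every setting run, though with the transcript of highest mean the intervals of DROSHA, DICER1, AGO2 and DIS3L2 passed 2-fold. Over all genes it called 0, and 2 without a trend; when 1 table was left out in turn, the remaining one assumed to vary like the other line, it called 0 to 67 genes, with 67 without shEXOSC3 day 5 and 62 without shNS day 5. With day as a block, which pairs the lines by day, it called 0; the labels give no replicate numbers to pair by. Without replicates or read counts, a difference of any size in a single gene cannot be set against sampling error, and 2-fold is a rule of size alone.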
